A study of Rattus norvegicus with 10 samples.

Results

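Coagulation and plasminogen activation genes were examined in the aorta of BN (Brown Norway) and LOU rats, a pair of inbred strains. The set holds 9 genes, namely Fgl2, F3, Thbd, Tfpi, Tfpi2, Plat, Plau, Plaur and Serpine2, taken by gene symbol whatever their values. They were read by 14 of the 15866 probe sets tested, and stood for 9 of 10411 named genes. Total RNA was measured on Affymetrix 3′ expression arrays, 5 for BN and 5 for LOU. The tissue labels say abdominal aorta for every array, while the extraction notes name the thoracic aorta as well. Neither strain was treated, both carried an age label of 5 weeks, and the growth notes put the upper limit of keeping at 18 weeks. The labels did not give the sex, nor say that each array came from a rat of its own. The p-values thus reflect the spread among these 10 arrays, which may be technical, and precision is limited by how few arrays there are.

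Blood clotting in a vessel wall starts when tissue factor, the product of F3, meets circulating factor VII, and adventitial cells around arteries are a known store of it. Tissue factor pathway inhibitor (Tfpi) and thrombomodulin (Thbd) on the endothelium restrain the cascade, the first by blocking the starting complex and the second by turning thrombin into an activator of protein C. Clots and matrix are cleared by plasmin, which tissue-type and urokinase-type plasminogen activators (Plat and Plau) release from plasminogen and which serpins such as protease nexin 1 (Serpine2) hold back.

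Of the 14 probe sets, 1 was lower in BN and none was higher at an adjusted p under 0.05 in limma's test over all probe sets. Over all 15866 probe sets 0.542% were called lower and 0.246% higher, 0.788% in all. At an unadjusted p under 0.05 there were 4 of the 14, against 13.3% of all probe sets. The signals of the strains did not overlap for 2 of the 14, both lower in BN, where over all probe sets 2.77% were lower and 1.41% higher without overlap, 4.18% in all. The median difference, BN minus LOU, was 0.02 on the log2 scale over the 14 and −0.03 over all probe sets. Of the 14, 9 lay above background on all 10 arrays, where background is the 95th percentile of the bacterial control probe sets on that array.

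**Figure D1:**
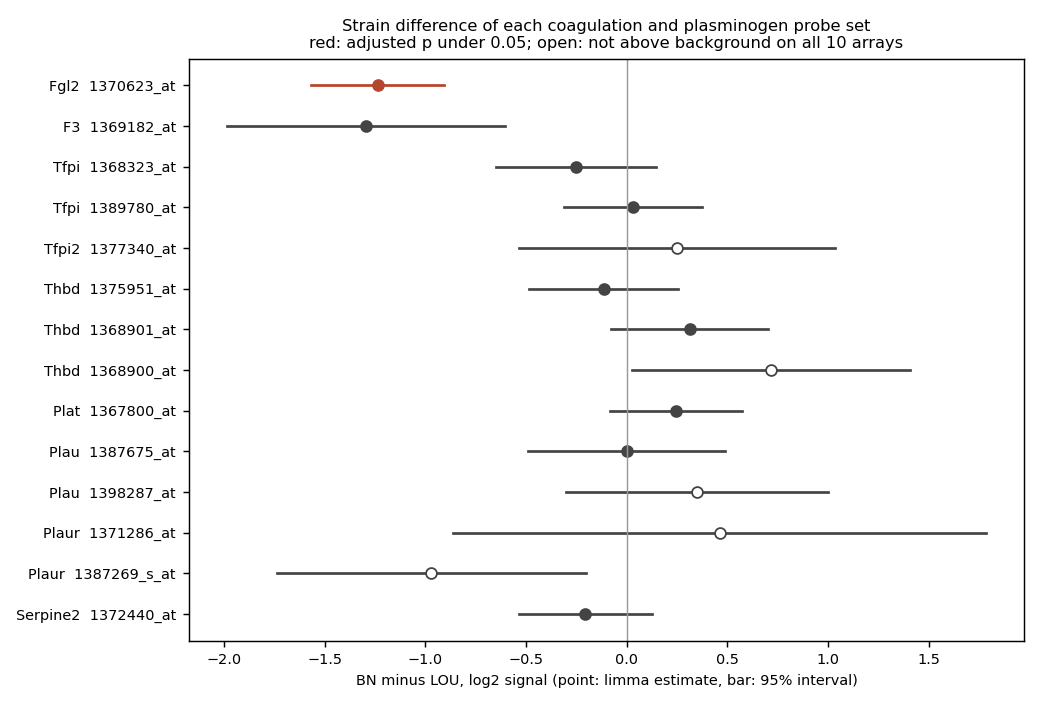
BN minus LOU difference in log2 signal for the 14 probe sets, with the limma estimate as a point and its 95% interval as a bar (n = 5 arrays per strain). Fgl2, in red, lies at −1.24 and F3 at −1.30 with a wider bar, while open points mark probe sets not above background on every array.

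Fgl2 encodes fibroleukin, a fibrinogen-like protein whose membrane form can cleave prothrombin directly and whose secreted form acts on immune cells. Its signal was lower in BN. The BN arrays gave 240.3, 174.0, 206.3, 263.9 and 236.4 for arrays 1 to 5, and the LOU arrays gave 502.8, 542.4, 617.5, 435.0 and 536.1. Every BN array lay below every LOU array, and the lowest LOU signal was 1.65 times the highest BN signal. The means were 224.2 ± 34.7 in BN and 526.8 ± 66.3 in LOU (SD, n = 5 each). The difference was −1.24 on the log2 scale (SE 0.15, 95% interval −1.57 to −0.91, limma adjusted p = 0.00474), so that LOU was 2.36-fold higher. It ranked at number 25 of the 15866 probe sets by p-value. Without any 1 array the difference stayed between −1.30 and −1.15, with adjusted p-values from 0.00929 to 0.0223, and the call held in 10 of 10 such fits. In whole aorta, fewer cells of a type and less RNA per cell cannot be told apart. Probe sequences were not used here, so a strain difference in the sequence under a probe and a difference in transcript level cannot be told apart either.

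F3, the tissue factor gene, differed by a similar amount with more scatter, and did not pass. Its signals were 236.0, 120.8, 168.3, 276.4 and 268.0 on BN arrays 1 to 5, and 659.6, 730.0, 530.6, 278.5 and 446.8 on LOU arrays 1 to 5. The strains were separated by a narrow margin, since LOU array 4 exceeded BN array 4 by a factor of 1.01. The means were 213.9 ± 67.2 in BN and 529.1 ± 178 in LOU (SD, n = 5 each). The coefficient of variation of F3 was 31.4% in BN and 33.7% in LOU, against 15.5% in BN and 12.6% in LOU for Fgl2. The difference was −1.30 on the log2 scale (SE 0.31, 95% interval −1.99 to −0.61), with an unadjusted p of 0.00187 and a limma adjusted p of 0.103. It passed in 2 of 20 alternative settings, at an adjusted p of 0.0392 without the dimmest 40% of probe sets and 0.0458 with a variance trend. The adjusted p ranged up to 0.308 over those settings. Without LOU array 4 the difference was −1.51 and the adjusted p 0.064.

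Fgl2 and F3 had their low arrays in common. BN array 2 gave the lowest and BN array 3 the second lowest BN signal of both genes, BN array 4 the highest, and LOU array 4 the lowest LOU signal. The highest LOU signal was on array 3 for Fgl2 and on array 2 for F3. This order was not particular to the pair. Serpine2 likewise had its lowest BN signals on arrays 3 and 2, its highest on array 4, and its lowest LOU signal on array 4, and the brightest Thbd probe set had its lowest BN signals on arrays 2 and 3.

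**Figure D2:**
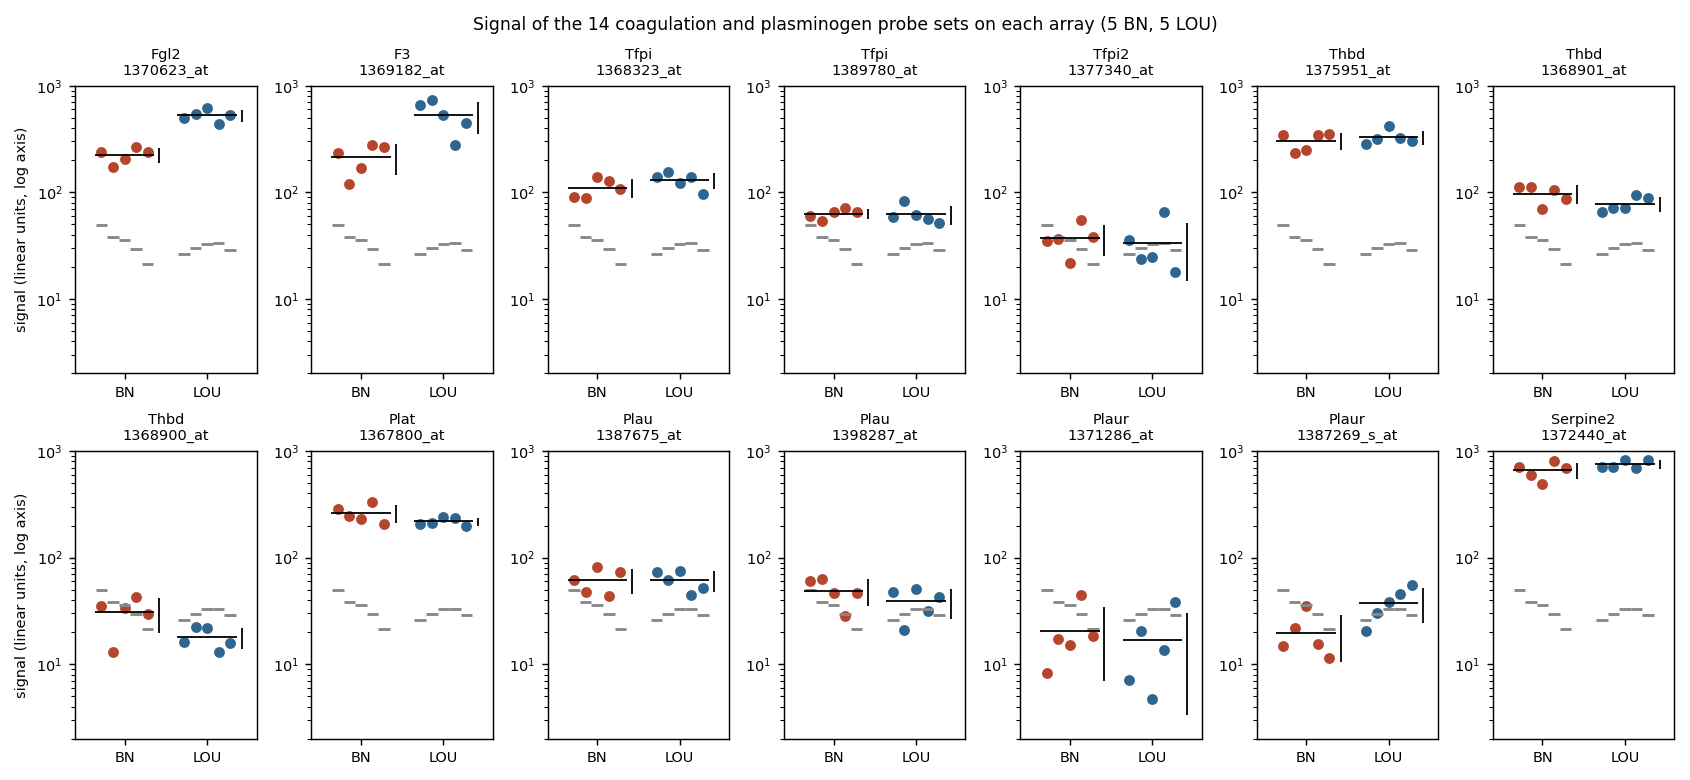
Signal of each of the 14 probe sets on the 5 BN and 5 LOU arrays, arrays 1 to 5 from left to right within a strain, on a log axis. Points are arrays, horizontal black lines are means, vertical lines are ± 1 SD and grey ticks are the background level of that array; Fgl2 and F3 are the 2 probe sets whose strains do not overlap.

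Markers of adventitial fibroblasts, which are also a source of F3, were mostly lower in BN too. Of 11 measured markers 10 had a negative difference, with a median of −0.59, and 1 passed limma's test as lower in BN, Ogn (osteoglycin), at −1.53. Their summed signal was 13831.9 to 17726 on BN arrays and 17913.3 to 30135.4 on LOU arrays, without overlap, and all 11 were above background on every array. This separation rested on Ogn, at 1028.1 to 2580.6 in BN and 3810.6 to 5956.9 in LOU. With Ogn left out of the sum, LOU array 5 fell below BN array 5. The mean log2 level of the 11 markers, each gene centred over the arrays, was −0.51 to −0.09 in BN and −0.09 to 0.78 in LOU. BN array 5, with the highest fibroblast sum of BN at 17726, stood next to LOU array 5, with the lowest of LOU at 17913.3. On these arrays, only 1 per strain, Fgl2 was 236.4 in BN and 536.1 in LOU, and F3 was 268.0 in BN and 446.8 in LOU. With Ogn left out of the sum the pair stood further apart. They are thus not a match for fibroblast content, and nothing is concluded from them. Within BN, arrays 2 and 3, with the lowest signals of both genes, also had the lowest sums, at 13831.9 and 14071.3. Within LOU, array 2, the highest for F3, had the highest sum, at 30135.4. LOU array 4, the lowest of LOU for both genes, had a sum of 22680.6, above those of LOU arrays 1 and 5. The part of the fibroblast markers in the Fgl2 and F3 differences was not tested.

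**Figure D3:**
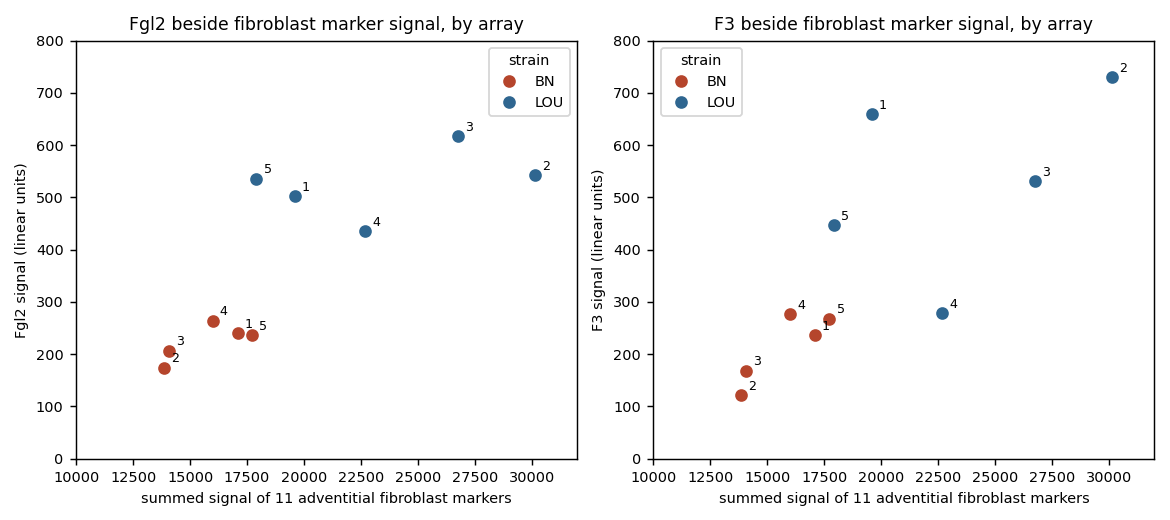
Signal of Fgl2 (left) and F3 (right) against the summed signal of 11 adventitial fibroblast markers, 1 point per array, numbered by array within strain. BN arrays hold sums up to 17726 and LOU arrays from 17913.3, a separation that rests on the marker Ogn.

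Macrophage markers, from cells that can express both genes, were negative in 10 of 12 with none past the test and a median of −0.26. Their summed signal was 1861.9 to 2710.6 on BN arrays and 1872.8 to 4783.7 on LOU arrays. The lymphocyte markers summed to 441 to 549.7 on BN arrays and 436.4 to 1214.7 on LOU arrays, and 7 of 9 were negative. LOU array 1 held the highest sum of both lists, where Fgl2, at 502.8, was the second lowest of LOU and F3, at 659.6, the second highest. The part of these cells in the differences was not tested. Without BN array 3 and LOU array 1, which an earlier analysis of these data found apart in nerve and immune markers, Fgl2 differed by −1.23 (limma adjusted p = 0.0342) and F3 by −1.13 (adjusted p = 0.25). Smooth muscle markers, which define the tissue, were above background on all arrays in 10 of 10 and endothelial markers in 12 of 12.

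Of the other marker lists, those of smooth muscle, nerve and striated muscle leaned the other way. Smooth muscle markers had a positive difference in 9 of 10, with a median of 0.25, none past the test and summed signals of 49526.5 to 73125.3 in BN and 43331.8 to 61034.6 in LOU. Nerve and Schwann cell markers were positive in 9 of the 10 measured, with a median of 0.86, and 1 of them, the myelin gene Mbp, passed as higher in BN. Their sums were 2850.3 to 11999.2 in BN and 2479.1 to 3513.6 in LOU. The BN maximum was array 3 alone, and the next highest BN sum was 4131.3 on array 2. Striated muscle markers were positive in 7 of 10, with a median of 0.44 and none past the test by their brightest probe sets, and sums of 3386 to 6086.7 in BN and 2089.9 to 3475.4 in LOU overlapped. Their mean log2 level, each gene centred over the arrays, was 0.14 to 0.76 on BN arrays and −0.80 to −0.16 on LOU arrays, without overlap. Mast cell markers were negative in 8 of 9 (median −0.49), with 1 above background on every array. Mesothelial markers were negative in 3 of 5 (median −0.35), with 0 above background on every array. Mesothelial sums were 138.5 to 287.2 in BN and 290.4 to 389.6 in LOU, without overlap. Their centred mean log2 levels did overlap, at −0.72 to 0.51 in BN and −0.17 to 0.47 in LOU. Adipocyte markers were positive in 7 of 10 (median 0.18), platelet markers in 3 of 4 (0.03) and liver markers in 5 of 7 (0.05). The part of these lists in the differences was not tested.

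Among the inhibitors of clotting, none differed past the test. Tfpi, whose protein blocks factor Xa and the tissue factor complex, was read by a pair of probe sets. The brighter gave 110 ± 22.4 in BN and 130.4 ± 21.9 in LOU (SD, n = 5 each), a difference of −0.25 on the log2 scale (95% interval −0.65 to 0.15, adjusted p = 0.591). The dimmer gave 63.0 ± 6.82 in BN and 62.2 ± 12.7 in LOU, a difference of 0.03 (−0.31 to 0.38, adjusted p = 0.95). Both intervals leave room for a change of either sign, and neither reaches the size seen for F3.

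Tfpi2, a related Kunitz-type inhibitor secreted into the matrix, was near background. It lay above background on 2 of 5 BN arrays and 2 of 5 LOU arrays, with signals of 21.7 to 54.6 in BN and 18.0 to 64.7 in LOU. The difference of 0.25 had a 95% interval of −0.53 to 1.03 (adjusted p = 0.803), which does not exclude a rise of up to 1.03 on the log2 scale.

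Thbd was read by 3 probe sets that did not give 1 direction. The brightest, 1375951_at, gave 305.1 ± 58.1 in BN and 328.2 ± 50.7 in LOU (SD, n = 5 each), a difference of −0.12 (95% interval −0.49 to 0.26, adjusted p = 0.809). The second, 1368901_at, gave 97.4 ± 18.8 in BN and 77.9 ± 12.6 in LOU, a difference of 0.31 (−0.08 to 0.70, adjusted p = 0.485). The third, 1368900_at, had signals of 35.3, 13, 33.8, 43.0 and 29.4 on BN arrays 1 to 5, and of 16.3, 22.4, 21.7, 13 and 15.8 on LOU arrays 1 to 5. Its signal exceeded background on 2 BN arrays and no LOU array, and was too low for a fold to be given (unadjusted p = 0.0428, adjusted p = 0.358). Endothelial markers, whose cells carry thrombomodulin, had a median difference of −0.01, with 6 of 12 negative and summed signals of 2487.2 to 4348.9 in BN and 3189.5 to 5028.1 in LOU.

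Neither plasminogen activator gene passed the test. Plat, tissue-type plasminogen activator, had signals of 285.4, 246.3, 232.3, 336.0 and 207.7 on BN arrays 1 to 5, and of 207.8, 212.4, 239.1, 235.4 and 196.9 on LOU arrays 1 to 5. The BN signals spread upwards from the LOU range, with 3 BN arrays above every LOU array. The means were 261.5 ± 50.2 in BN and 218.3 ± 18.2 in LOU, a difference of 0.24 (95% interval −0.08 to 0.57, adjusted p = 0.522). Plau, the urokinase gene, gave 61.8 ± 16.2 in BN and 61.2 ± 13.3 in LOU in its brighter probe set, with a 95% interval for the log2 difference of −0.49 to 0.49. Its other probe set, above background on 4 BN and 3 LOU arrays, differed by 0.35 (−0.30 to 1.00, adjusted p = 0.648).

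Plaur, the cell surface receptor that holds urokinase, was dim and its probe sets had opposite signs. Probe set 1387269_s_at gave 14.9, 21.9, 35.3, 15.5 and 11.5 on BN arrays 1 to 5, and 20.4, 30.3, 38.1, 45.4 and 55.4 on LOU arrays 1 to 5. It exceeded background on 0 BN arrays and 4 LOU arrays, and did not pass limma's test (difference of −0.97 in the fit, unadjusted p = 0.018, adjusted p = 0.258). The strains overlapped, and BN array 3, at 35.3, lay just below its background level of 35.96. LOU array 2, at 30.3, lay just above its level of 29.84. Set against background, LOU was 1.07-fold higher, which is not a minimum for the true difference. That fold takes the mean log2 signal of LOU against the mean, over BN arrays, of the background level or the signal itself where that was higher. LOU array 1, below its own background, is counted in the LOU mean. Probe set 1371286_at was above background on 1 array of each strain, with signals of 8.3 to 44.2 in BN and 4.7 to 38.5 in LOU.

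Serpine2, the serpin that inhibits thrombin and both plasminogen activators, gave signals of 705.9, 599.8, 492.1, 799.0 and 694.9 on BN arrays 1 to 5, and of 714.2, 704.2, 821.9, 688.2 and 829.2 on LOU arrays 1 to 5. The ranges overlapped, and BN array 3 was the lowest of all 10. The means were 658.3 ± 117 in BN and 751.5 ± 68.2 in LOU, a difference of −0.21 (95% interval −0.54 to 0.12, adjusted p = 0.595). The interval excludes a fall of the size seen for Fgl2.

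Other genes of clotting and plasminogen activation were taken from a list of 55 genes, of which 38 were read here by 48 probe sets. None of the 48 passed limma's test in either direction, and 8 had an unadjusted p under 0.05, against 13.3% of all probe sets. The median difference was 0.03, with 26 probe sets positive and 22 negative. Signals did not overlap between strains for 3 of the 48, all lower in BN, against 2.77% of all probe sets lower without overlap.

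The 3 probe sets without overlap were those of Lrp1, Ggcx and F5, which also had the smallest adjusted p-values of the list. Lrp1 encodes the endocytic receptor that clears tissue factor pathway inhibitor and plasminogen activators bound to their serpins. Its signals were 670.7, 588.8, 540.7, 675.0 and 661.6 on BN arrays 1 to 5, and 685.0, 780.8, 1159.8, 942.2 and 928.3 on LOU arrays 1 to 5. The difference was −0.50 (95% interval −0.85 to −0.15, adjusted p = 0.196), and BN array 4 came close to LOU array 1. Ggcx, the carboxylase that uses vitamin K to mature clotting factors, gave 240.3 ± 47.4 in BN and 325.8 ± 26.2 in LOU (−0.46, adjusted p = 0.235). F5, the gene of the factor Xa cofactor, gave 63.0 ± 12.2 in BN and 87.6 ± 11.7 in LOU (−0.49, adjusted p = 0.239).

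**Figure D4:**
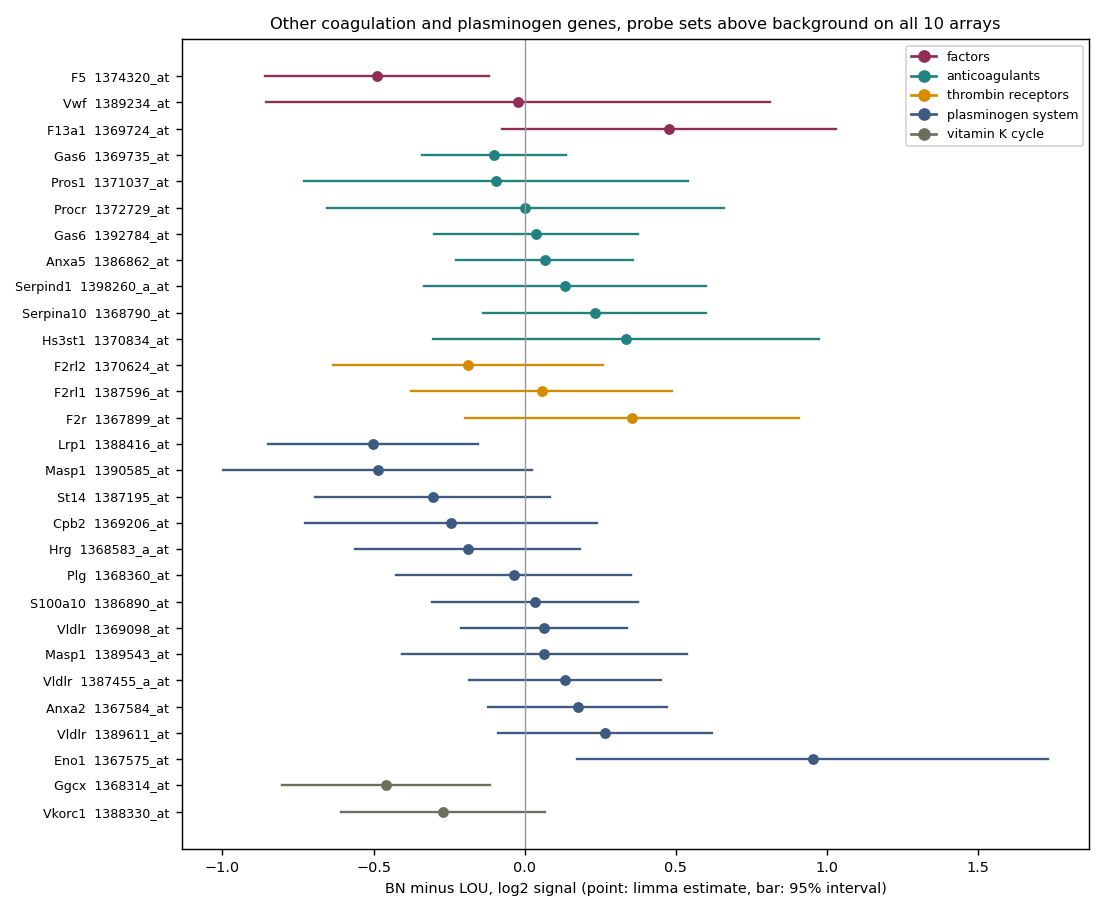
BN minus LOU difference in log2 signal for the 29 probe sets of the wider list that lay above background on all 10 arrays, coloured by role, with limma estimates as points and 95% intervals as bars (n = 5 arrays per strain). The intervals of Lrp1, Ggcx and F5 lie below 0 and that of Eno1 above 0, and none passed after adjustment.

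The thrombin receptor gene F2r gave 472.8 ± 185 in BN and 352.1 ± 48.2 in LOU, a difference of 0.35 (95% interval −0.20 to 0.91, adjusted p = 0.587), and BN array 3 at 764.7 stood above the rest. Procr, the endothelial receptor that presents protein C to thrombomodulin, differed by 0.00 (−0.65 to 0.66). Pros1, the gene of the cofactor of activated protein C, differed by −0.10 (−0.73 to 0.54). Vwf, the platelet-binding protein of the endothelium, ranged from 229.5 to 463.9 in BN and from 219.4 to 987.5 in LOU, where array 2 was the high one. Anxa2 and S100a10, whose proteins together bind plasminogen and its tissue activator on cell surfaces, differed by 0.17 (−0.12 to 0.47) and 0.04 (−0.31 to 0.38). Among the fibrinogen genes, normally products of the liver, Fgg lay above background on no array, while 1 Fgb probe set did so on 4 BN and 5 LOU arrays. Another Fgb probe set did so on 1 BN and 1 LOU array, and the remaining one on 0 arrays of either strain.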

How the data were processed

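RNA of aorta, abdominal per the tissue labels and thoracic and abdominal per the extraction notes, was measured on 10 arrays, grouped by the strain in each title. The deposited values are array intensity, a linear signal per probe set from 0 to 22219.9. RMA, with no version, stands in the submitters' processing notes, but the deposited signals are linear and share a trimmed mean of 200.05 to 200.06 on every array, so they were taken as scaled to a common mean. Medians ran from 97.4 to 105 and background levels from 21.2 to 49.2. After 57 controls were left out, log2(signal), with the 4 values of 0 set to 0.1, entered a two-sided limma fit of BN minus LOU (version 3.58.1, R 4.3.3, eBayes with a constant prior). Benjamini-Hochberg adjustment ran over all 15866 probe sets. Probe sets were named through GEO's annotation, updated to RefSeq GRCr8 by gene identifier (12748) or accession (2), with 33 kept as listed. On simulated arrays with 200 changed of 15866 probe sets, the test recovered 46.8% of log2 changes of 1 and 75.2% of 2, with 4.45% false calls. Each probe set was simulated independently, without variation shared within an array, so these rates may not hold for the real arrays. All probe sets of the 9 genes are named. Of the wider list, named genes are those past the test, 7 fixed ones (1 of them is not reported here) and the 3 others with the smallest adjusted p; Ogn, Mbp, Eno1, Fgg, Fgb and the neighbouring genes were chosen after their values were seen. Members and lists were chosen with earlier results of these data known. Alternatives covered scaling, dim signals, the variance model, left-out arrays, a replicate block and 1 probe set per gene. Python 3.11.15 made the summaries.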

Additional observations from a re-analysis of the deposited data

How the results depend on the processing

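Over all probe sets, called higher in BN were 39 as reported, 77 without the dimmest 40% of probe sets, 60 with a floor of 32, 60 with a pseudocount of 16, 81 with a variance trend and 16 without BN array 3 and LOU array 1 together. Called lower in BN were 86 as reported, 175 without the dimmest 40%, 144 with a pseudocount of 16 and 161 with a variance trend. Leaving out 1 array at a time gave 17 to 36 higher and 45 to 91 lower. Of the 14 probe sets of the 9 genes, the 1 called lower became 2 without the dimmest 40% and 2 with a variance trend, which added F3; 7 of the 14 were kept by that filter. The causes were not tested. With a replicate block in the fit, 10 probe sets over all were called higher and 13 lower, none of the 14 passed (0 lower), and Fgl2 had the same difference with an adjusted p of 0.11. Arrays sharing a number correlated between −0.05 and 0.01 after strain means were taken off, so the numbers gave no sign of pairing. In the other 19 alternatives Fgl2 kept its call. Its adjusted p ranged from 0.000567 to 0.0342 there. The brighter Plau probe set, at 0.00053 as reported, turned sign with array weights (−0.04), without BN array 3 and LOU array 1 (−0.04) and in some fits without 1 array (range −0.11 to 0.11), and the dimmer Tfpi probe set in some such fits (−0.03 to 0.15). The other probe sets kept their sign in every alternative that tested them, and no probe set of the wider list passed in any. Signal over background limits Tfpi2, Plaur and the dimmest Thbd probe set.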

Other observations

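By gene order in RefSeq GRCr8, an assembly of the BN strain, the 4 nearest measured genes of each of the 9 genes (36 in all) were read from their brightest probe sets. None passed limma's test (0 of 36), against 0.788% of all probe sets called in either direction. At an unadjusted p under 0.05 there were 2 of the 36, against 13.3% of all probe sets. The nearest measured genes on either side of Fgl2 were Ptpn12, at 0.31, and Armc10, at 0.06, while Fgl2 itself was at −1.24. Between them and Fgl2 lay 1 and 4 unmeasured coding genes. Around F3, Cnn3, with 1 unmeasured coding gene between, differed by 0.08. Abcd3, with 0 between, differed by 0.33 without overlap (limma adjusted p = 0.205), with the sign opposite to that of F3. Genes that were not measured could not be read. Polb, near Plat, was the other of the 36 without overlap, at −0.32. Over all probe sets 4.18% were without overlap.

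The genes most alike to each of the 9 were sought by Pearson r over the 10 arrays after strain means were taken off, among 7368 genes above background on all arrays. The arrays share their scaling and tissue make-up, and with so many candidates some high values arise from any profile, so these are descriptions only. For Fgl2 they were Gpha2 (0.96) and Mdk (0.92), for F3 Tug1 (0.95) and Casp2 (0.94), and over all 9 genes the values ran from 0.88 to 0.96. None of the 18 genes found this way differed between strains past the test.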
